A study of Homo sapiens with 17 samples.

Results

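The genes examined here build the ribosome. They were chosen by name from a list of 59 ribosome biogenesis and nucleolar genes, of which 58 have a row among the 9699 transcripts of the deposited table, and PPAN is not analysed here. By role the 58 fall into 21 genes of small-subunit processing, 24 of large-subunit processing, 7 of the small nucleolar ribonucleoproteins (snoRNPs), 3 of RNA polymerase I and 3 multifunctional nucleolar proteins. Transcript levels (RNA-Seq) and ribosome occupancy of the coding sequence (Ribo-Seq) were measured in immortalized BJ cells, human fibroblasts kept dividing by expression of hTERT, the catalytic subunit of telomerase, in 17 libraries, 9 of RNA-Seq and 8 of Ribo-Seq. The first sequencer run held proliferating controls, cells made quiescent by serum depletion, and pre-senescent cells, which carried a tamoxifen-inducible RASG12V and had been kept in 1e-07 M 4-OHT-Tamoxifen for 5 days. The second run held a further proliferating control, senescent cells, with the same inducible RASG12V and 14 days of 4-OHT-Tamoxifen, and transformed cells, in which RASG12V was introduced by retrovirus into cells with stable knockdowns, that of p16INK4A among them, that also expressed SV40 small T. All these cells share hTERT, and the labels of the proliferating and quiescent cultures name no other transgene.

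A ribosome begins in the nucleolus, where RNA polymerase I transcribes the precursor of the large ribosomal RNAs. Box C/D snoRNPs, whose methyltransferase is fibrillarin (FBL), and box H/ACA snoRNPs, whose pseudouridine synthase is dyskerin (DKC1), modify that precursor. The small-subunit processome, made up of UTP proteins, WD-repeat proteins and helicases, and a separate set of large-subunit factors cut and fold it, and a last group of factors accompanies the pre-ribosomes to the cytoplasm. Cells that grow and divide make ribosomes at a high rate, and the genes of this pathway are known to be turned up by growth signals and by MYC.

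The table holds 1 value for each condition, assay and run, in fragments per kilobase of transcript, scaled to the reads of the library (FPKM), so each difference has no replicate check and none was tested. Translation efficiency (TE) is the log2 of the Ribo-Seq level minus the log2 of the RNA-Seq level. Each condition was set against the control of its own run, as the study did because its samples agreed less well between sequencer runs. A gene was counted as lower or higher where its value differed by 1.5-fold or more (0.585 on the log2 scale). That count was read against the share of all transcripts tested that passed the same limit. The control, quiescence and (for RNA-Seq) pre-senescence values of run 1 are the authors' values for 2 libraries each. How those libraries were combined is not given in the sources used here. The table holds no read counts for single genes, and the read totals that the study lists for its libraries are not used here, so no counting interval is given.

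A few features of the libraries bear on every comparison. The condition fields of the senescence and run 2 control Ribo-Seq libraries are exchanged relative to their titles, and the titles were followed. MKI67, a marker of dividing cells, was at 1.00 FPKM in the senescence RNA-Seq library and at 1.00 FPKM in the Ribo-Seq library titled as senescence, against 43.0 FPKM in the Ribo-Seq library titled as control. All 8 fibroblast markers listed had rows, and their RNA levels varied between conditions, least for VIM (2956 to 4881 FPKM) and most for COL1A1, which ran from 51.6 FPKM in senescence to 1328 FPKM in the run 2 control and was at 371 FPKM in the run 1 control. COL3A1 was between 12.7 and 213.7 FPKM and PDGFRB between 4.49 and 60.9 FPKM. CDKN2A RNA, of the locus that encodes p16INK4A, was at 12.6 FPKM in the transformed cells, against 6.75 FPKM in the control of run 2 and 17.2 FPKM in that of run 1. Its occupancy was at 5.51 FPKM, against 8.92 and 13.0 FPKM, so the RNA and occupancy of the transformed cells lay on opposite sides of the run 2 control. HRAS RNA was between 1254 and 2415 FPKM in the 5 other RNA-Seq columns, the proliferating controls included, and at 311.5 FPKM in the transformed cells. The proliferating controls of the 2 runs also differed from each other in these genes by about as much as quiescence did from its control. The medians and counts of each condition are therefore also given against the control of the other run, with the genes whose direction turned. Such a comparison crosses sequencer runs, and the study lists the RNA-Seq libraries of run 1 as paired-end and those of run 2 as not. It is no replicate of the comparison within a run.

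The promoters of these genes were searched for 2 sequence features known from genes of the ribosome. RefSeq promoters of GRCh38.p14, 250 bases before and 50 after an annotated start, matched 50 of the 58 genes by symbol (58 promoters, since a gene can have several starts). RRP1B, BOP1, RRP12, UTP23, DDX18, NOLC1, RRS1 and NOP58 were not matched. The E-box CACGTG, the letters to which MYC and related factors are known to bind and which read the same on both strands, stood in a promoter of 19 of the 50 genes (38%), against 947 of the 7292 genes of the table with a promoter (13%), which had 10719 promoters. It was present in 9 of 19 small-subunit genes, 7 of 20 large-subunit genes, 2 of 5 snoRNP genes and none of the 3 RNA polymerase I genes. The following windows, 40 bases before the start and 20 from it on, written 5′ to 3′, are shown because the E-box (capitals) lies close to the start in each.
PNO1, chr2:68157848-68157907, plus strand: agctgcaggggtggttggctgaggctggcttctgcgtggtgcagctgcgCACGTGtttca
RRP9, chr3:51941885-51941944, minus strand: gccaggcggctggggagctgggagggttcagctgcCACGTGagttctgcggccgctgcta
UTP18, chr17:51260506-51260565, plus strand: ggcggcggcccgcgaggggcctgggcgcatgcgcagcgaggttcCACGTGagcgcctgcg
UTP20, chr12:101280065-101280124, plus strand: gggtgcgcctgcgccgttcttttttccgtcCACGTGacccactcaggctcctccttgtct
WDR43, chr2:28894627-28894686, plus strand: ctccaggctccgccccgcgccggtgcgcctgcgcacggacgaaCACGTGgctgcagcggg
GNL2, chr1:37595918-37595977, minus strand: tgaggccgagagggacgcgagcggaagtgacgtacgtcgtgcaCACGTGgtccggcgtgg
GNL3, chr3:52685992-52686051, plus strand: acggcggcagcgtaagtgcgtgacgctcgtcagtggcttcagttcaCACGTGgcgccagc
PES1, chr22:30591891-30591950, minus strand: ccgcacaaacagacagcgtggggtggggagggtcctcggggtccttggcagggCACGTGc
A start at a C followed by at least 4 pyrimidines is the mark of 5′-terminal oligopyrimidine (TOP) messages, the class to which most ribosomal protein messages belong. Read on the gene's strand, such a start was annotated for 6 of the 50 genes (12%), against 7.89% of the 7292 genes and 71.4% of 63 cytosolic ribosomal protein genes. The windows of 4 of the 6 are shown with the pyrimidine run in capitals. In FBL the last C of the run is also the first base of an E-box, and the capitals cover both.
FBL, chr19:39846360-39846419, minus strand: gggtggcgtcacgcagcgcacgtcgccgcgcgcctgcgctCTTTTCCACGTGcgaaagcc
NPM1, chr5:171387809-171387868, plus strand: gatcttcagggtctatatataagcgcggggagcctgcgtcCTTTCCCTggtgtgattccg
DDX21, chr10:68956130-68956189, plus strand: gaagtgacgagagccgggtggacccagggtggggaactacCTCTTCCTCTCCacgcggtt
EBNA1BP2, chr1:43172551-43172610, minus strand: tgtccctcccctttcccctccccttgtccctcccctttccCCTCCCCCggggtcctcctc

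In the proliferating cells of run 1 these were well expressed messages. Their median RNA level was 29.7 FPKM, against 13.6 FPKM over all 9699 transcripts, and their median log2 TE was 0.73, against 0.35. Levels ranged from 5.12 FPKM for UTP23, a small-subunit processome protein, to 900.2 FPKM for NPM1, the abundant nucleolar chaperone nucleophosmin, whose many pseudogenes leave its counted reads uncertain. The snoRNP genes had a median of 65.1 FPKM, the large-subunit genes 31.3 FPKM, the RNA polymerase I genes 22.8 FPKM and the small-subunit genes 21.3 FPKM. RRP15, a large-subunit factor, had the highest log2 TE in each of the 6 conditions, from 3.11 in pre-senescence to 4.13 in the run 2 control, on an RNA level of only 3.45 to 6.63 FPKM. None of the 58 genes was at the table's lowest value of 1.0 FPKM in any column.

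In quiescence all 58 genes had a lower RNA level than in the control of the same run, with a median log2 fold of -0.60 against -0.01 over all transcripts tested. By 1.5-fold or more, 30 of the 58 genes were lower (51.7%), against 8.94% of 9473 transcripts, and none was higher, against 10.9%. BOP1, EBNA1BP2, NOP56 and PA2G4 had been picked out by the study from these same samples, so they are not independent evidence of the direction. These 4 had the lowest RNA folds of the 58, and without them 26 of 54 genes were lower. The study also reported lower RNA in quiescence for ribosome biogenesis genes as a class in these samples. The remaining genes are thus not independent evidence either. Against the control of run 2 the median was -0.03, with 2 genes lower (3.45%, against 10.9% of transcripts) and 5 higher (8.62%, against 12.6%). Of the 30 genes NOP16, a large-subunit factor, alone was still lower by 1.5-fold or more, and 10 turned direction, among them BOP1 at 0.24, RRP9 at 0.23, NOC4L at 0.087 and DKC1 at 0.052. The medians of the 5 roles then lay between -0.073 and 0.052. FPKM values are shares of a library, so a difference in the RNA content of the cells cannot be seen here, and fewer cells with a high level cannot be told apart from less RNA in every cell.

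Of the 24 large-subunit genes 15 were lower in quiescence RNA by 1.5-fold or more, and the median log2 fold was -0.65. In the sentences that follow, the values of run 1 stand in the order control, quiescence and pre-senescence, and those of run 2 in the order control, senescence and transformed. EBNA1BP2, a nucleolar assembly factor, had an RNA level of 156, 63.8 and 135 FPKM in run 1 and 64.4, 72.9 and 81.1 FPKM in run 2. BOP1, which joins PES1 and WDR12 in the PeBoW complex needed to mature the large-subunit RNAs, was at 14.8, 6.94 and 13.6 FPKM in run 1 and 5.89, 6.94 and 9.79 FPKM in run 2. PA2G4, a protein of pre-ribosomal particles, was at 182, 88.7 and 163 FPKM in run 1 and 99.5, 87.2 and 113 FPKM in run 2. All 3 had their lowest value of run 1 in quiescence, and every run 2 value lay below the control of run 1. Their log2 folds in quiescence were -1.29, -1.09 and -1.03. The other PeBoW proteins, WDR12 and PES1, had log2 folds of -0.67 and -0.49. GNL2, a GTPase of late large-subunit assembly, showed the smallest difference of this role, at 50.1, 46.2 and 66.2 FPKM in run 1 and 38.0, 46.8 and 45.1 FPKM in run 2 (log2 fold -0.12).

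Of the 21 small-subunit genes 8 were lower in quiescence by 1.5-fold or more, and the median was -0.50. PNO1, an RNA-binding factor of late small-subunit maturation, was at 20.2, 11.4 and 27.6 FPKM in run 1 and 13.5, 19.0 and 19.2 FPKM in run 2. RRP9, a protein bound to the U3 snoRNA, was at 39.2, 23.8 and 45.4 FPKM in run 1 and 20.3, 18.1 and 26.9 FPKM in run 2, and NOC4L, a partner of NOP14, was at 22.6, 13.8 and 20.1 FPKM in run 1 and 13.0, 12.9 and 18.2 FPKM in run 2. Their log2 folds were -0.83, -0.72 and -0.71. Of the 11 UTP and WD-repeat genes of the processome none passed 1.5-fold in RNA, from -0.57 for UTP20 to -0.11 for WDR36, whereas 5 of the 6 late maturation factors (PNO1, BYSL, TSR1, RRP12 and LTV1, but not NOB1) did; these subgroups were formed after the values had been seen. WDR36 stood at 12.2, 11.2 and 13.5 FPKM in run 1 and 8.14, 8.76 and 9.17 FPKM in run 2.

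Among the snoRNP genes 4 of 7 were lower, with a median of -0.66. NOP56, a core protein of box C/D particles, was at 119, 59.7 and 115 FPKM in run 1 and 62.6, 45.8 and 80.6 FPKM in run 2. NOLC1, a chaperone of snoRNPs, was at 41.4, 23.4 and 43.9 FPKM in run 1 and 30.1, 20.9 and 37.8 FPKM in run 2, and DKC1 was at 65.1, 38.6 and 73.5 FPKM in run 1 and 37.2, 30.7 and 47.6 FPKM in run 2. Each was lower in quiescence than in the run 1 control, by log2 folds of -1.0, -0.82 and -0.76. NHP2, a structural protein of the H/ACA particle, was at 91.6, 74.4 and 101 FPKM in run 1 and 49.6, 68.4 and 72.2 FPKM in run 2, with a log2 fold of -0.30. The 3 multifunctional proteins had folds between -0.73 and -0.53. Nucleolin (NCL) RNA was at 325, 202 and 348 FPKM in run 1 and 208, 154 and 251 FPKM in run 2. DDX21, a nucleolar RNA helicase, was at 78.2, 47.3 and 91.1 FPKM in run 1 and 48.9, 38.7 and 56.5 FPKM in run 2, and NPM1 was at 900.2, 622 and 1060.4 FPKM in run 1 and 537, 530.0 and 547 FPKM in run 2. The RNA polymerase I genes had the median closest to 0, -0.45. POLR1A, the largest subunit of the polymerase, was at 22.8, 15.1 and 21.8 FPKM in run 1 and 16.1, 13.2 and 18.2 FPKM in run 2. POLR1B, the second subunit, was at 11.9, 9.62 and 15.03 FPKM in run 1 and 10.1, 11.2 and 12.3 FPKM in run 2. UBTF, the factor that opens ribosomal DNA to the polymerase, was at 31.6, 23.1 and 24.4 FPKM in run 1 and 21.4, 11.4 and 32.4 FPKM in run 2.

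**Figure D1:**
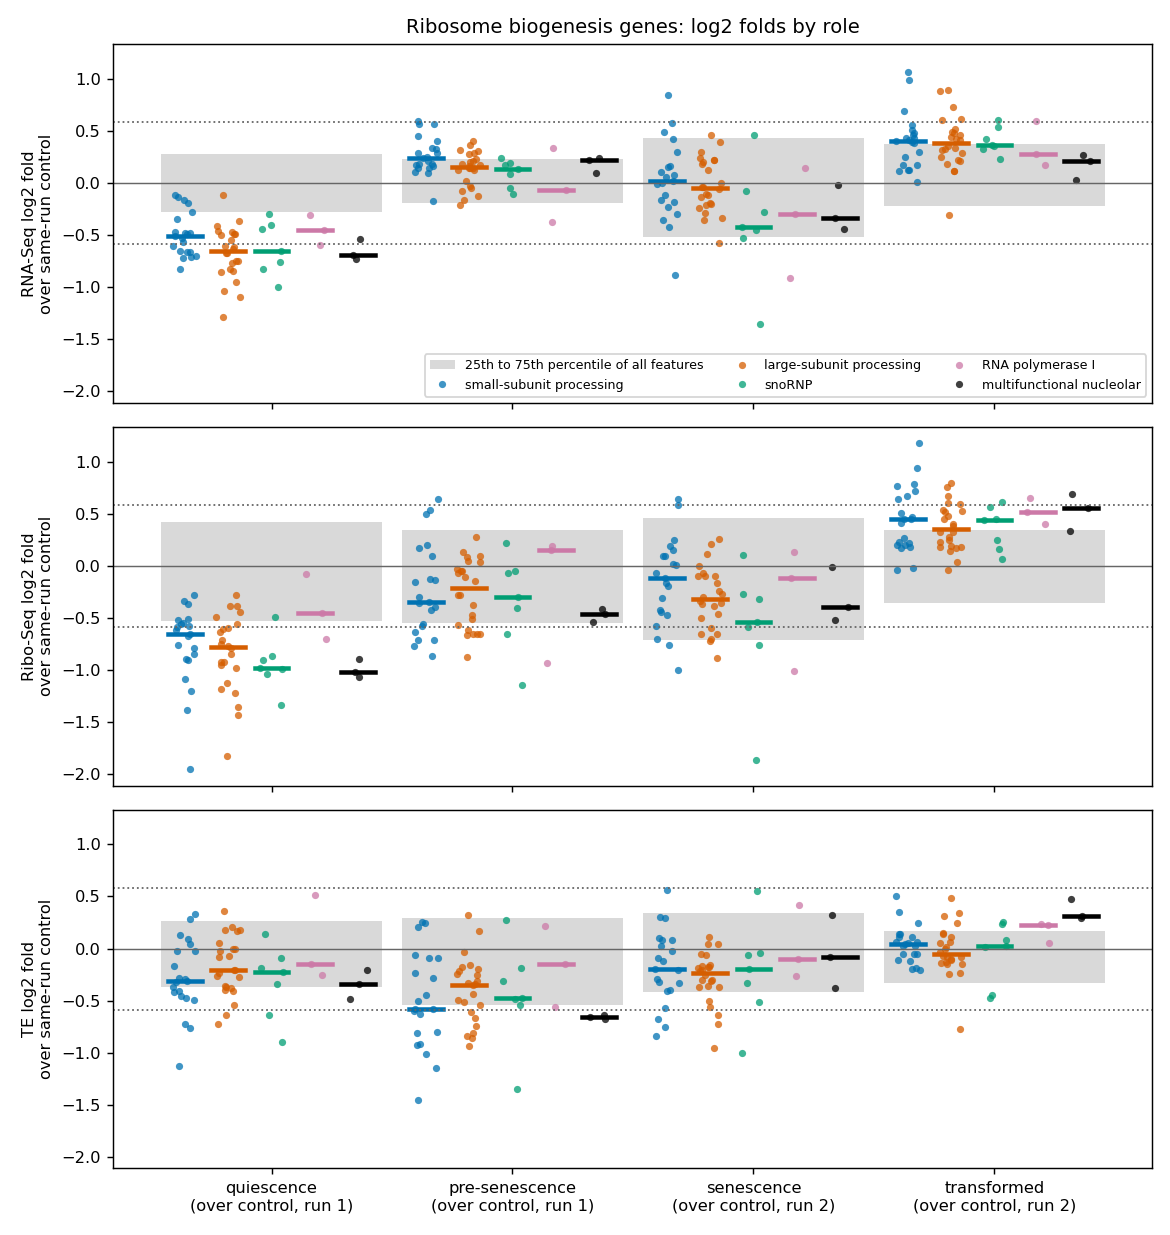
Log2 fold of each of the 58 genes (points, coloured by role, with a bar at the median of each role) in RNA-Seq, Ribo-Seq and TE, for each condition over the control of its own run; the grey box spans the 25th to the 75th percentile of all transcripts tested and the dotted lines mark 1.5-fold. The quiescence RNA points all lie below 0, and in pre-senescence the median of the TE points (-0.48) lies below that of the RNA points (0.18).

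Ribosome occupancy in quiescence was lower still. The median Ribo-Seq log2 fold was -0.78, against -0.07 over all transcripts tested, and 41 of the 58 genes were lower by 1.5-fold or more (70.7%), against 22.6% of 9491 transcripts. None was higher, against 19.1%. The largest difference was that of PNO1, whose Ribo-Seq level was at 43.6, 11.3 and 29.6 FPKM in run 1 and 47.8, 41.8 and 74.6 FPKM in run 2, in the order given above. EBNA1BP2 followed, at 311, 87.4 and 169 FPKM in run 1 and 111, 80.4 and 126 FPKM in run 2. These are log2 folds of -1.95 and -1.83, and in both genes quiescence held the lowest occupancy of run 1. NPM1 occupancy was at 2509.8, 1242 and 1881 FPKM in run 1 and 1889, 1436 and 2388 FPKM in run 2, and that of NCL was at 904, 488 and 621 FPKM in run 1 and 580.0, 405 and 854 FPKM in run 2. Both had their lowest value of run 1 in quiescence, with log2 folds of -1.02 and -0.89. By role the medians were -1.02 for the multifunctional genes (3 of 3 lower), -0.98 for snoRNP genes, -0.78 for large-subunit genes, -0.65 for small-subunit genes and -0.45 for RNA polymerase I genes. Against the control of run 2, 13 genes were lower (22.4%, close to the 23.8% of transcripts) and 5 higher (8.62%, against 19.8%), with a median of -0.26. All 13 were among the 41, and 10 of the 41 turned direction.

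The part of this difference that was not in RNA was small for most genes. The median TE log2 fold in quiescence was -0.25, against -0.06 over all transcripts tested. Below 0 were 45 of the 58 genes, against 5047 of 9061 transcripts. Only 7 genes were lower in TE by 1.5-fold or more (12.1%), close to the 13.8% of 9061 transcripts, and none was higher, against 10.6%. Against the control of run 2 the median was -0.20 and 15 were lower (25.9%, against 17.8%). The 7 were PNO1, FBL, UTP3, TSR1, RRP15, GAR1 and GNL3, of which all but GNL3 (-0.34) were lower by 1.5-fold or more against either control, with PNO1 at -1.13, FBL at -0.90 and UTP3, a processome protein, at -0.76. POLR1A had the highest TE fold, 0.52, since its occupancy was nearly level (21.1, 20.0 and 23.4 FPKM in run 1 and 21.8, 23.9 and 28.9 FPKM in run 2) while its RNA was lower. NOC3L, a large-subunit transport factor, and RRP12, a factor of pre-ribosome export, had TE folds of 0.36 and 0.33. With the control of run 2 the TE folds of POLR1A and NOC3L were -0.031 and -0.21. For comparison, 77 cytosolic ribosomal protein genes, taken by symbol after values had been seen, had a median RNA log2 fold of 0.07 and a median TE log2 fold of -1.11 in the same quiescent cells, with 73 of 77 lower in TE. The 6 genes with an annotated pyrimidine start had a median TE fold of -0.41, and the 44 matched genes without it -0.22, with the ranges overlapping (-0.90 to -0.02 and -1.13 to 0.52). The median RNA fold was -0.57 in the 19 genes with an E-box and -0.54 in the 31 without.

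Pre-senescence showed another picture, with RNA levels slightly higher and TE lower. The median RNA log2 fold was 0.18, against 0.04 over all transcripts tested. No gene was lower by 1.5-fold or more, against 6.82% of 9447 transcripts, and 1 was higher, UTP3 (log2 fold 0.59), against 5.8%. WDR3 and DDX10, of the small-subunit processome, came next at 0.57 and 0.57. At the other end UBTF was at -0.38, EBNA1BP2 at -0.21 and NOC4L at -0.17. Within run 1, 47 of the 58 genes lay above the control in RNA, against 5140 of 9447 transcripts. Over the 6 columns of both runs, 43 of the 58 genes had their highest RNA level in pre-senescence. That ranking crosses the runs, and the like count over all transcripts was not made.

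Occupancy in pre-senescent cells did not follow these RNA levels. The median Ribo-Seq log2 fold was -0.30, against -0.12 over all transcripts tested. By 1.5-fold or more 14 genes were lower (24.1%), near the 23.3% of 9461 transcripts, and 1 was higher, RRP12 at 0.64, against 16.3%. TE had a median log2 fold of -0.48, against -0.15, and 51 of the 58 genes were below 0, against 5249 of 8928 transcripts. By 1.5-fold or more 20 were lower in TE (34.5%), against 22.5% of 8928 transcripts, and none was higher, against 13.6%. Once folds were centred on the median of all transcripts, 13 genes passed that limit, against 15.6% of transcripts.

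TE lower by 1.5-fold or more in pre-senescence was found in small-subunit genes (9 of 21, median -0.58) and in all 3 multifunctional genes (median -0.65), in large-subunit genes (7 of 24, median -0.35), snoRNP genes (1 of 7, median -0.47) and RNA polymerase I genes (none of 3, median -0.15). UTP3 was lowest, at -1.46. Its RNA was at 16.8, 15.3 and 25.3 FPKM in run 1 and 27.2, 33.4 and 30.5 FPKM in run 2, and its occupancy at 43.2, 23.3 and 23.7 FPKM in run 1 and 73.8, 78.6 and 72.6 FPKM in run 2. In run 1 pre-senescence thus had the highest UTP3 RNA and an occupancy close to that of quiescence, and all run 2 values lay above the run 1 control. GAR1, an H/ACA protein, followed at -1.34, with RNA at 15.8, 11.9 and 18.1 FPKM in run 1 and 15.99, 11.9 and 18.7 FPKM in run 2 and occupancy at 45.3, 22.1 and 20.5 FPKM in run 1 and 47.6, 28.2 and 56.4 FPKM in run 2. DDX10 was at -1.15. The highest TE folds were those of DDX51, a large-subunit helicase, at 0.33, NOP56 at 0.27 and UTP20 at 0.25. NCL, DDX21 and NPM1 had TE folds of -0.64, -0.68 and -0.65. With the run 2 control the median RNA fold was 0.80 and 44 genes were higher (75.9%, against 17.6%), though UTP3 turned to -0.10. The median Ribo-Seq fold was then 0.36, with 16 genes higher (27.6%, against 19.3%) and 6 lower (10.3%, against 28%), and of the 14 genes lower in occupancy against the run 1 control 4 were still so and 6 turned direction. The median TE fold was -0.47, with 24 genes lower (41.4%, against 25.1%), 15 of the 20 among them, so the TE value moved little with the control and the RNA and Ribo-Seq values moved a great deal. The pre-senescence Ribo-Seq value is 1 library, while its RNA value stands for 2.

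**Figure D2:**
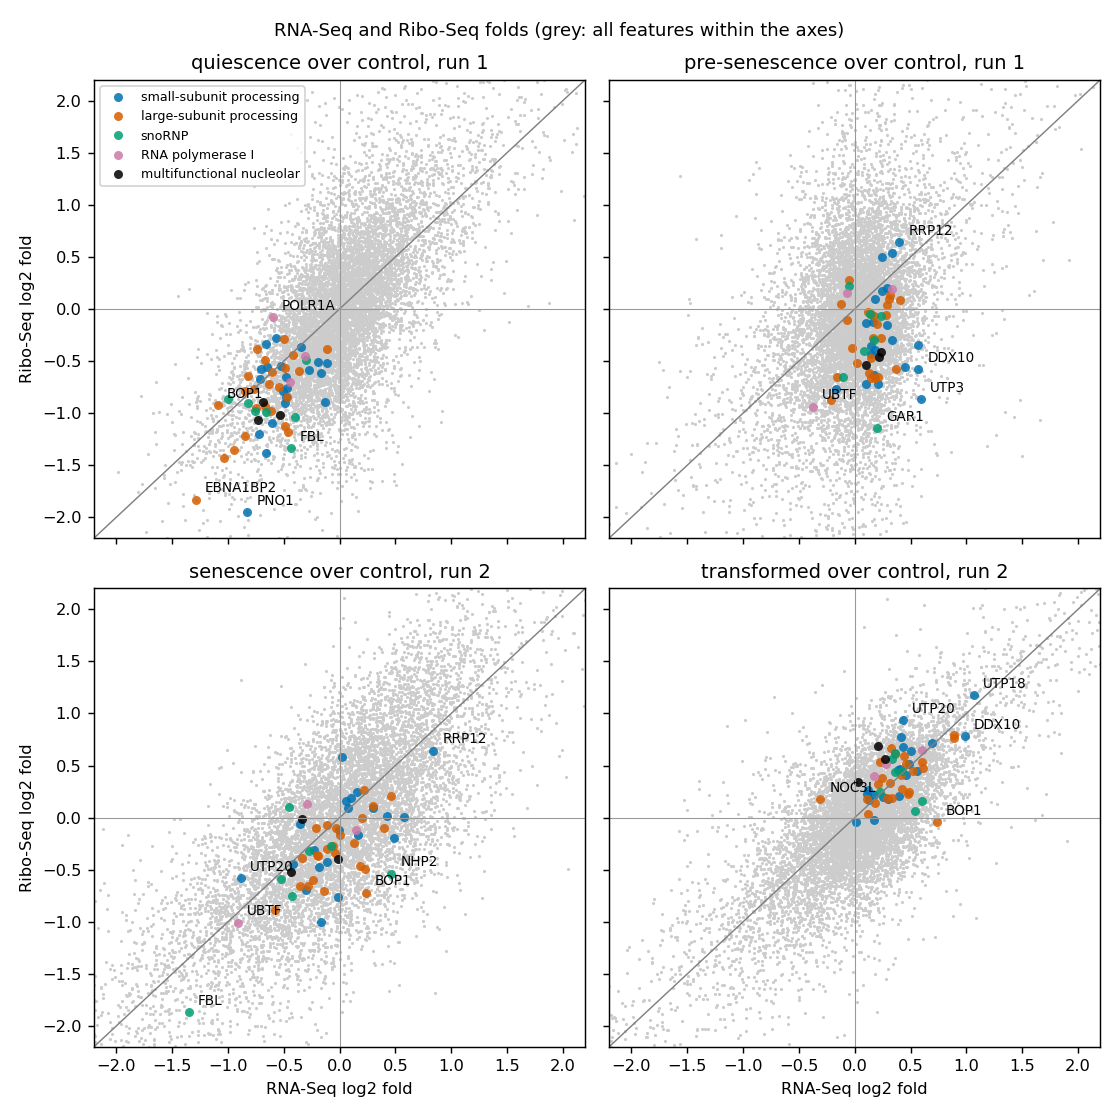
RNA-Seq log2 fold (x axis) against Ribo-Seq log2 fold (y axis) for the 58 genes (coloured by role) and all transcripts (grey, those within the axes), for each condition over the control of its own run; on the diagonal the TE fold is 0. Most genes lie below the diagonal in quiescence (45 of 58), pre-senescence (51) and senescence (45), and 24 of 58 do in transformed cells. Over all transcripts tested in TE the like counts, in the same order, are 5047 of 9061, 5249 of 8928, 4649 of 8839 and 5254 of 9122.

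In full senescence, measured in run 2, the RNA level of most of these genes was near that of its control. The median RNA log2 fold was -0.07, against -0.02 over all transcripts tested, and 36 of the 58 genes were below 0. By 1.5-fold or more, 3 were lower (5.17%), against 22.7% of 9560 transcripts, and 1 was higher, RRP12, against 18.7%. The 3 were FBL, UBTF and UTP20. FBL RNA was at 173, 128 and 161 FPKM in run 1 and 78.4, 30.7 and 105 FPKM in run 2, and FBL occupancy at 190.3, 75.5 and 121 FPKM in run 1 and 111, 30.4 and 152 FPKM in run 2. Senescence held by far the lowest FBL values in both assays, with log2 folds of -1.35 and -1.87, the lowest of the 58 genes in each. UBTF had log2 folds of -0.91 in RNA and -1.01 in occupancy, the latter at 65.3, 40.1 and 34.1 FPKM in run 1 and 36.7, 18.3 and 57.5 FPKM in run 2. UTP20 RNA was at 12.8, 8.63 and 15.2 FPKM in run 1 and 9.69, 5.25 and 13.1 FPKM in run 2, a log2 fold of -0.88. RRP12 RNA was at 25.9, 16.4 and 34.2 FPKM in run 1 and 11.8, 21.1 and 19.0 FPKM in run 2, and its occupancy at 40.8, 32.4 and 63.8 FPKM in run 1 and 22.4, 34.9 and 36.7 FPKM in run 2. In run 2 the control held the lowest RRP12 value of both assays. DDX10 and PNO1 had the next highest RNA folds, at 0.58 and 0.49. The study described a cluster enriched for ribosome biogenesis genes as lower in quiescence and, more weakly, in senescence. The 4 genes it named from that cluster differed in direction here. Their senescence RNA folds over the run 2 control were 0.24 for BOP1, 0.18 for EBNA1BP2, -0.19 for PA2G4 and -0.45 for NOP56.

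Against the control of run 1, 33 genes were lower in senescence RNA (56.9%, against 29.2%) and the median was -0.79, while RRP12 turned to -0.30. The RNA result of senescence thus differed with the control. This comparison crosses the runs, so culture and run cannot be told apart in it. FBL, UBTF and UTP20 were lower against either control, since their run 1 control levels were above those of run 2. Over the 6 columns of both runs, the lowest FPKM value in RNA was that of senescence in 32 of the 58 genes, of quiescence in 16 and of the run 2 control in 10. This ranking too crosses the runs and has no like count over all transcripts beside it.

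In senescence the median Ribo-Seq log2 fold was -0.29, against -0.12 over all transcripts tested. By 1.5-fold or more 13 genes were lower (22.4%), against 29.5% of 9544 transcripts, and RRP12 alone was higher, against 21%. RRP9 followed FBL and UBTF, at -1.0, with an occupancy of 42.6, 18.5 and 25.9 FPKM in run 1 and 17.4, 8.71 and 24.1 FPKM in run 2. BRIX1, a large-subunit assembly factor, was at -0.88 and NOB1, the nuclease that makes the mature end of small-subunit RNA, at -0.76. The snoRNP genes had the lowest median of the roles, -0.54, and the small-subunit genes had -0.12. TE had a median of -0.20, against -0.04, with 7 genes lower by 1.5-fold or more (12.1%), against 17.5% of 8839 transcripts, and none higher, against 13.2%. The 7 were NHP2 (-1.0), BOP1 (-0.96), RRP9 (-0.84), NOB1, NOP16, PNO1 and EBNA1BP2. The highest TE folds were those of UTP15 at 0.56, NOP56 at 0.56 and POLR1A at 0.42. With the run 1 control the median Ribo-Seq fold was -0.91 with 39 genes lower (67.2%, against 35.2%), 12 of the 13 among them, and RRP12 occupancy turned to -0.23. The median TE fold was -0.17 with 8 genes lower (13.8%, against 21.6%) and 4 higher (6.9%, against 20.1%). Of the 7 genes lower in TE only RRP9 and EBNA1BP2 then passed the limit, while NHP2 was at -0.24, BOP1 at -0.052 and PNO1 at 0.029. The occupancy and TE values of senescence depend on the titles of its 2 exchanged Ribo-Seq labels. With the condition field followed instead, the median TE fold was 0.35, and the 18 genes higher (31%) were a smaller share than the 35% of transcripts. Exchanging the 2 libraries reverses the sign of every senescence occupancy fold. The turn of all 13 genes lower in occupancy was thus fixed in advance. In TE, 6 of the 7 lower genes turned.

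Transformed cells had higher levels of most of these RNAs than the control of their run. The median RNA log2 fold was 0.38, against 0.09 over all transcripts tested, and only NOC3L was below 0 (-0.31). By 1.5-fold or more 10 genes were higher (17.2%), against 13.2% of 9593 transcripts, and none was lower, against 11.6%. The 10 were UTP18, DDX10, DDX51, WDR74, BOP1, RRP12, NOC2L, MRTO4, NOP58 and UBTF. UTP18, a WD-repeat protein of the processome, was at 40.7, 28.7 and 46.1 FPKM in run 1 and 22.8, 18.6 and 48.0 FPKM in run 2 in RNA and at 64.3, 37.2 and 48.9 FPKM in run 1 and 27.4, 16.9 and 62.1 FPKM in run 2 in occupancy. Within run 2 the transformed cells held the highest UTP18 value of both assays and the senescent cells the lowest. DDX10 RNA was at 15.9, 10.5 and 23.5 FPKM in run 1 and 10.7, 16.01 and 21.3 FPKM in run 2 and DDX51 RNA at 7.70, 5.46 and 7.43 FPKM in run 1 and 3.22, 2.80 and 5.97 FPKM in run 2. TSR1 and NPM1 were nearly level with the control, at 0.01 and 0.03. Median RNA folds were close across roles, from 0.21 in the multifunctional genes to 0.41 in the small-subunit genes.

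Occupancy in transformed cells was higher by about as much as RNA. The median Ribo-Seq log2 fold was 0.42, against 0.01 over all transcripts tested, 15 genes were higher (25.9%), against 13.6% of 9595 transcripts, and none was lower, against 15.8%. TE had a median of 0.04, against -0.07. BOP1, at -0.78, was the 1 gene lower in TE by 1.5-fold or more, against 10% of 9122 transcripts, and none was higher, against 4.35%. BOP1 occupancy was at 10.6, 5.60 and 10.98 FPKM in run 1 and 7.92, 4.81 and 7.69 FPKM in run 2, so its transformed and run 2 control values were nearly equal while its RNA differed. NHP2 and NOP58 followed, with TE folds of -0.48 and -0.44, and UTP20, NOC3L and DDX21 were highest, at 0.50, 0.49 and 0.48. Against the control of run 1 the median RNA fold was -0.31 and the median Ribo-Seq fold -0.16. The 7 genes lower in RNA (12.1%, against 12.3% of transcripts) and the 9 lower in occupancy (15.5%, against 22.5%) were no larger shares than those of all transcripts. In TE 7 genes were higher (12.1%, against 14.8%) and BOP1 turned to 0.13. Of the 10 genes higher in RNA none passed the limit and 7 turned direction, and of the 15 higher in occupancy UTP20 and PNO1 passed it and 13 turned. Higher levels in transformed cells were thus seen mainly against the control of their own run. The comparison with run 1 holds the run difference too.

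**Figure D3:**
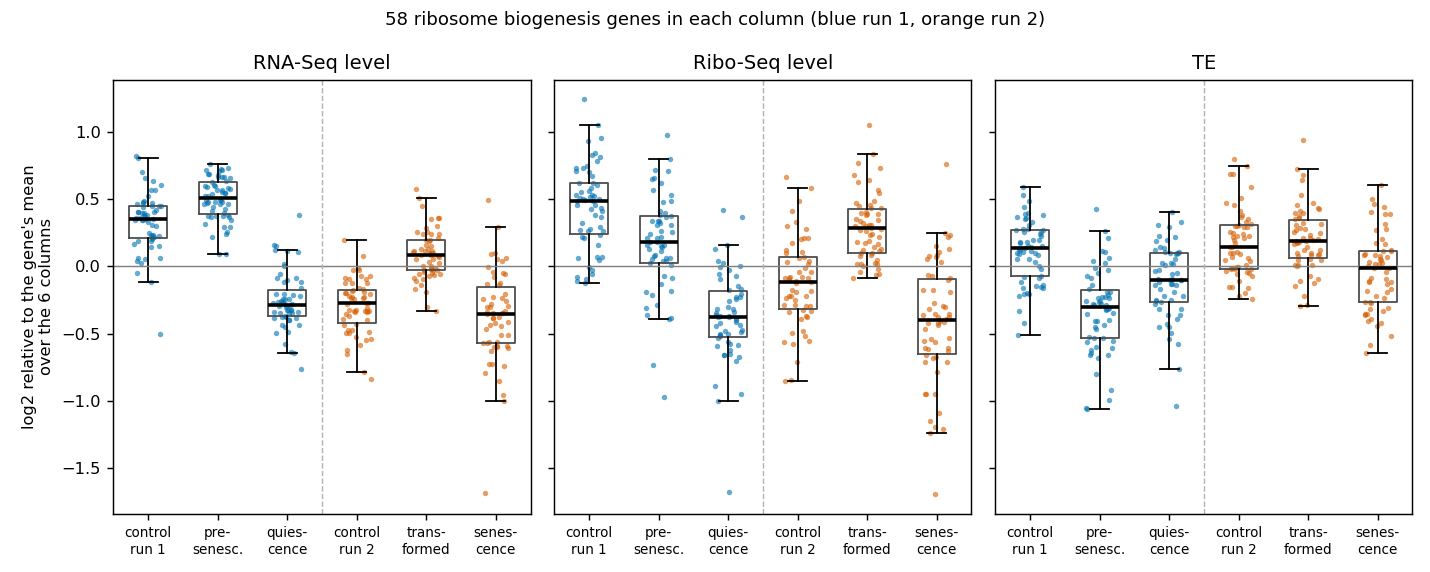
Level of each of the 58 genes in each column, on the log2 scale relative to that gene's mean over the 6 columns, for RNA-Seq, Ribo-Seq and TE (points, blue for run 1 and orange for run 2; boxes span the quartiles with the median as a line). Pre-senescence has the highest RNA median (0.51) and the lowest TE median (-0.30), and the 2 proliferating controls stand apart in RNA (0.36 and -0.27) but not in TE (0.14 and 0.14).

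Senescent and transformed cells were sequenced in the same run and both carry RASG12V, so they can be set against each other without a control. All but 6 of the 58 genes had lower RNA in senescence (52 of 58), with a median log2 difference of -0.42, against -0.10 over all transcripts tested. The 17 genes lower by 1.5-fold or more (29.3%) were close in share to the 27.1% of 9567 transcripts. In occupancy the share was larger, 38 of 58 (65.5%), against 30.1% of 9581 transcripts, with a median of -0.69 against -0.11. With the condition field followed for the exchanged libraries it was 15 of 58 (25.9%, against 13.6%). That setting puts the library titled as control in the place of senescence, so it repeats the comparison of transformed cells with their control. In TE 5 genes were lower (8.62%), namely RRP9, PNO1, NOC3L, RRS1 and NPM1, against 10.7% of 8815 transcripts. Of the snoRNP genes 6 of 7 were lower in RNA, led by FBL at -1.78, with an occupancy difference of -2.32. UBTF differed by -1.51 in RNA and -1.65 in occupancy, UTP18 by -1.37 and -1.88, and UTP20 by -1.32 and -1.52. UTP23 and NOC3L had the highest RNA differences, at 0.30 and 0.25. The senescent and transformed lines also differ in the stable knockdowns, SV40 small T and the way RASG12V was introduced, and these cannot be told apart here.

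The 2 proliferating controls come from different runs. Their difference thus holds both culture and run and is no measure of the spread within a run. Between run 2 and run 1 the median RNA log2 difference of the 58 genes was -0.61, against -0.06 over all transcripts tested, with 29 genes lower by 1.5-fold or more (50%), against 14.4% of 9521 transcripts. In occupancy the median was -0.68, against -0.01, with 34 genes lower (58.6%), against 20.7% of 9512 transcripts. WDR74 was lowest in both, at -1.40 and -1.66, and UTP3 was the 1 gene higher, at 0.70 and 0.77. In TE the median was 0.06, against 0.02, so the controls differed in the level of these genes and much less in TE. MKI67 RNA, a measure of division, was at 73.9 FPKM in the run 1 control and 44.0 FPKM in the run 2 control, against 32.8 FPKM in quiescence and 37.0 FPKM in pre-senescence. CCNB1, the mitotic cyclin, was at 116.5 and 70.4 FPKM in the controls and 48.2 FPKM in quiescence. KRT19, an epithelial keratin, was at 39.8 FPKM in RNA of the run 2 control and at 1.00 FPKM in the run 1 control. The summed RNA level of the 3 epithelial markers with rows (of 5 listed) was 313 and 198 FPKM there, against 105 to 208 FPKM in the other conditions. Most of that sum was KRT18, at 257 and 186 FPKM in these controls and 199 FPKM in transformed cells. KRT8 went another way, with its highest RNA in quiescence (18.8 FPKM) and an occupancy of 8.43 FPKM in the run 2 control and 9.76 FPKM in that of run 1. EPCAM and CDH1 had no row. Run and culture cannot be told apart here. Whether any culture held epithelial cells was not tested, and the part of division rate in the levels of these genes was not tested.

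**Figure D4:**
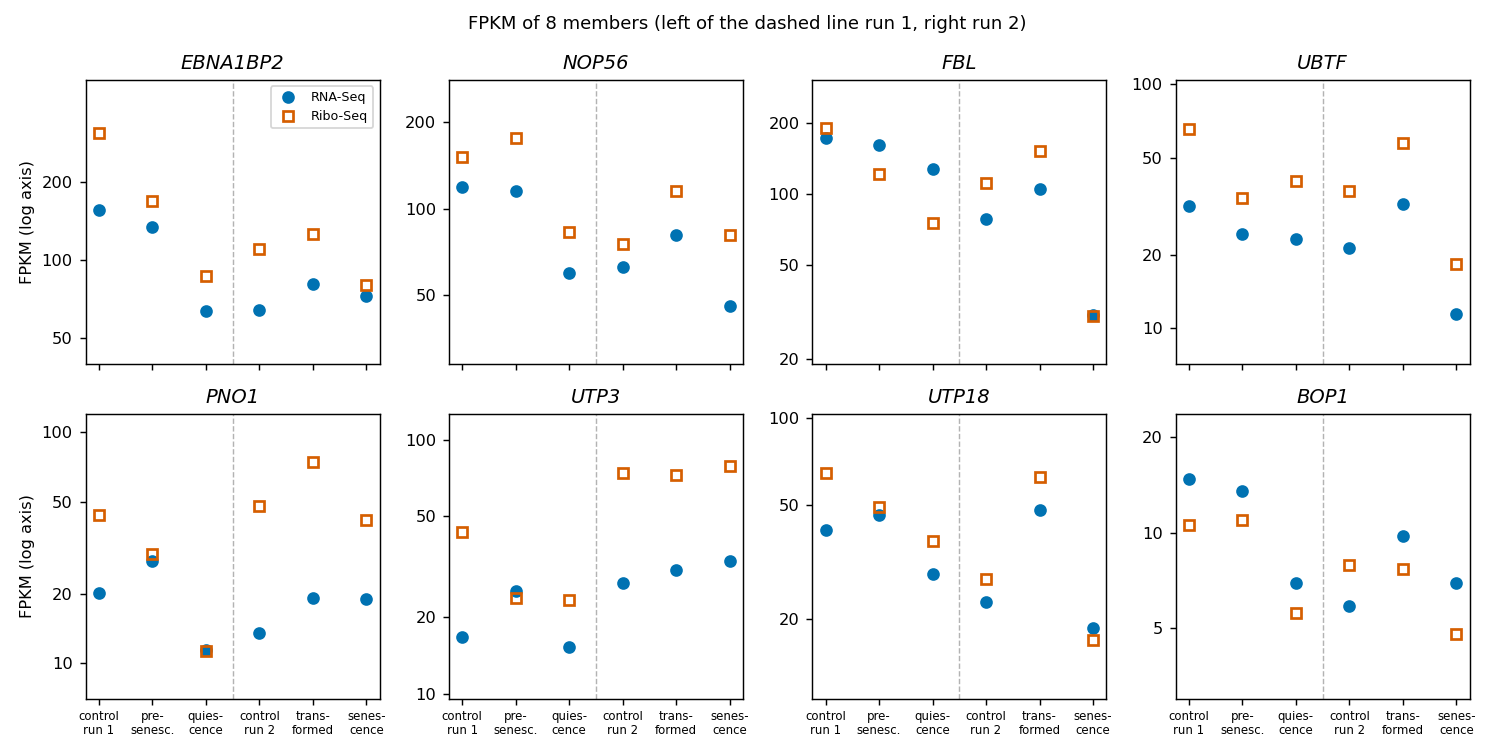
FPKM (log axis) of 8 genes in the RNA-Seq (filled circles) and Ribo-Seq (open squares) columns, with run 1 left of the dashed line and run 2 right of it. PNO1 and UTP3 show occupancy close to RNA in quiescence or pre-senescence and well above it elsewhere, and FBL and UBTF are lowest in senescence.

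In RNA 30 genes were lower by 1.5-fold or more in quiescence, 3 in senescence and none in pre-senescence or transformed cells, so little overlap was possible. No gene was lower in more than 1 of the 4 conditions, 33 were so in 1 of them, and RRP12 was higher in 2, senescence and transformation. In occupancy RRP9, RRP15, BRIX1, FBL, GAR1 and UBTF were lower in quiescence, pre-senescence and senescence alike, and RRP12 was higher in pre-senescence, senescence and transformed cells. With the controls exchanged GAR1 alone was lower in those 3 conditions, and RRP12 occupancy was higher in pre-senescence but at -0.23 in senescence and -0.15 in transformed cells. In TE PNO1 was the 1 gene lower in quiescence, pre-senescence and senescence, at -1.13, -1.01 and -0.68. Its senescence value rests on the control, since against that of run 1 it was 0.029, and no gene was lower in TE in 3 conditions once the controls were exchanged. Quiescence and pre-senescence share a control, as do senescence and transformation, so these counts are not independent. The like overlaps over all transcripts were not counted, so whether they are particular to these genes cannot be said. Across the 58 genes the RNA and Ribo-Seq folds had a Pearson correlation of 0.50 in quiescence, 0.205 in pre-senescence, 0.654 in senescence and 0.562 in transformed cells, against 0.702, 0.448, 0.828 and 0.847 over all transcripts. These are correlations across genes of the same libraries, not over replicates.

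Of a further 81 ribosome biogenesis genes 78 had rows. In quiescence their median RNA log2 fold was -0.36, with 17 lower by 1.5-fold or more (21.8%, against 8.94% of transcripts) and 1 higher (1.28%, against 10.9%). Their median TE fold was -0.22, with 16 lower (20.5%, against 13.8%) and 2 higher (2.56%, against 10.6%). TCOF1, the treacle protein of ribosomal DNA transcription, was lowest in RNA at -0.89, followed by NOL6 at -0.82 and URB2 at -0.80, and EFTUD1, a GTPase of late large-subunit maturation, was highest at 0.91. With the run 2 control the median RNA fold was 0.098 and TCOF1 was at 0.099, whereas NOL6 was at -1.08.

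In pre-senescence the further genes had a median RNA fold of 0.22, with none lower and 6 higher (7.69%, near the 5.8% of transcripts), and a median TE fold of -0.43, with 24 lower (30.8%, against 22.5%) and 3 higher (3.85%, against 13.6%). In senescence the medians were 0.0017 in RNA, with 5 lower (6.41%, against 22.7%) and 6 higher (7.69%, against 18.7%), and -0.11 in TE, with 12 lower (15.4%, near the 17.5%) and 2 higher (2.56%, against 13.2%). In transformed cells they were 0.33 in RNA, with none lower and 9 of 78 higher, near the 13.2% of transcripts, and 0.05 in TE, with 2 lower (2.56%, against 10%) and 1 higher (1.28%, against 4.35%). With the controls exchanged the RNA medians were 0.63 in pre-senescence, -0.45 in senescence and -0.15 in transformed cells, and the TE medians were -0.44, -0.079 and 0.069.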

How the data were processed

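RNA-Seq and Ribo-Seq reads were aligned by the authors with Bowtie (version not given in the sources used here) to curated protein-coding transcripts of hg19, with 1 transcript for each gene, and uniquely mapped reads alone were kept. The deposited values are FPKM, over the whole transcript for RNA-Seq and over the coding sequence for Ribo-Seq, and the authors set values below 1.0 to 1.0. The table's 12 columns hold 1 value for each condition, run and assay. From these FPKM values log2 folds over the control of the same run, and TE folds, were computed with Python 3.11.15, pandas 2.3.3 and numpy 2.4.6. A transcript was left out where both levels compared were at 1.0 or, for TE, where any of the 4 levels was, so the number tested differs between comparisons. Folds were checked on simulated data. With 1 value in each group no test, SD or p-value is given, and the read totals that the study lists for its libraries are not used here.

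The 59 members and all gene lists were chosen with earlier results of these data known. Every member could be named. Values in all libraries were given for BOP1, EBNA1BP2, NOP56, PA2G4, NCL, NPM1, DDX21, the RNA polymerase I members and, in each other role, the 3 members with the largest and the 1 with the smallest RNA difference in quiescence, and elsewhere the 3 highest and 3 lowest folds of each condition were named. Alternatives were a pseudocount of 1 FPKM, a mean of at least 5 FPKM, folds centred on the median of all transcripts, a 2-fold limit, the control of the other run, and the condition field in place of the title for the exchanged Ribo-Seq libraries. The level of a further knocked-down gene is not reported here.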

Additional observations from a re-analysis of the deposited data

Results flagged for a closer look

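UBTF, UTP18 and RRS1 stood out because senescence and transformed cells, against the same control of run 2, lay past 1.5-fold on opposite sides of it. UBTF RNA had a log2 fold of -0.91 in senescence and 0.60 in transformed cells, a difference of -1.51, and its Ribo-Seq folds were -1.01 and 0.65, a difference of -1.65. UTP18 had Ribo-Seq folds of -0.70 and 1.18, a difference of -1.88, and RRS1, a large-subunit assembly factor, had Ribo-Seq folds of -0.60 and 0.67, a difference of -1.27. The opposite sides rest on the run 2 control and, in occupancy, on the titles of the exchanged Ribo-Seq libraries. Against the control of run 1 the folds in senescence and transformed cells were -1.47 and 0.037 for UBTF RNA, -1.84 and -0.18 for UBTF occupancy, -1.93 and -0.051 for UTP18 occupancy and -2.08 and -0.82 for RRS1 occupancy. With the condition field followed, the sign of each senescence occupancy fold reverses by construction. For genes below the control in senescence and above it in transformed cells, both occupancy folds must then lie above 0. They were at 1.01 and 1.65 for UBTF, 0.70 and 1.88 for UTP18 and 0.60 and 1.27 for RRS1. The second value of each pair is the difference given above with its sign reversed. The same side was thus fixed in advance and is no further result. With 1 library in each group these differences were not tested.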

How the results depend on the processing

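The counts of genes past 1.5-fold were recomputed under each alternative (lower or higher as named). The share of all transcripts that passed the same limit stands in brackets, and the counts are of 58 genes. No count moved by over 1.5 times with the filter on mean level. With a pseudocount of 1 FPKM the 1 gene higher in pre-senescence RNA became 0 (4.52%). With folds centred on the median of all transcripts, pre-senescence had 0 higher in RNA (5.1%), 7 lower (18.4%) and 3 higher (20.4%) in Ribo-Seq and 13 lower in TE (15.6%). Senescence then had 2 higher in RNA (19.3%), 7 lower (25.2%) and 2 higher (24.8%) in Ribo-Seq and 2 higher in TE (14.9%). Transformed cells had 6 higher in RNA (10.5%). At 2-fold, quiescence had 3 lower in RNA (2.43%), 14 in Ribo-Seq (8.2%) and 1 in TE (3.97%). The 3 in RNA were EBNA1BP2, BOP1 and PA2G4, all named by the study from these samples. Pre-senescence had 0 higher in RNA (1.82%), 1 lower (10.6%) and 0 higher (7.31%) in Ribo-Seq and 4 lower in TE (8.32%). Senescence had 1 lower (13.2%) and 0 higher (7.19%) in RNA, 3 lower (16.8%) and 0 higher (11.2%) in Ribo-Seq and 0 lower in TE (5.87%). Transformed cells had 1 higher in RNA (4.97%), 1 higher in Ribo-Seq (5.34%) and 0 lower in TE (1.79%). Senescence against transformed cells had 5 lower in RNA (15.3%), 13 in Ribo-Seq (17.5%) and 0 in TE (2.53%). The run 2 against the run 1 control had 7 lower in RNA (3.05%) and 13 in Ribo-Seq (8.37%).

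The control of the other run moved most counts, given here with the share of all transcripts in brackets. Quiescence then had 2 lower (10.9%) and 5 higher (12.6%) in RNA, 13 lower (23.8%) and 5 higher (19.8%) in Ribo-Seq and 15 lower in TE (17.8%). Pre-senescence had 44 higher in RNA (17.6%), 6 lower (28%) and 16 higher (19.3%) in Ribo-Seq and 1 higher in TE (13.2%). Senescence had 33 lower in RNA (29.2%), 39 lower in Ribo-Seq (35.2%) and 4 higher in TE (20.1%). Transformed cells had 7 lower (12.3%) and 1 higher (14.7%) in RNA, 9 lower (22.5%) and 4 higher (21.3%) in Ribo-Seq and 7 higher in TE (14.8%). It also turned the direction of some folds: in quiescence RNA BOP1 was at 0.24, RRP9 at 0.23, NOC4L at 0.087 and DKC1 at 0.052; in pre-senescence RNA UTP3 was at -0.10; in senescence RNA RRP12 was at -0.30; and in transformed cells DDX51 RNA was at -0.37 and BOP1 TE at 0.13. With the condition field followed for the exchanged Ribo-Seq libraries, senescence had 1 lower (21%) and 13 higher (29.5%) in Ribo-Seq. These are the main counts with the sign reversed by the exchange. In TE it had 3 lower (31.3%) and 18 higher (35%), with NHP2 TE at 0.077, BOP1 at 0.48 and RRP9 at 1.16. Transformed cells had 38 higher in Ribo-Seq (30.1%) and 15 higher in TE (24.3%), and senescence against transformed cells had 15 lower in Ribo-Seq (13.6%) and 2 in TE (17.4%). The cause of these shifts was not tested.

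No paired analysis was possible because the table holds 1 column for each condition and run, with no replicate numbers. Leaving out a replicate could not be run for the same reason. The limits are thus the single value for each group, the absence of read counts for single genes, and the difference between the proliferating controls. That difference holds the run too and was as large in these genes as that of quiescence.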

Other observations

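Among the further ribosome biogenesis genes, those of RNA polymerase I and its factors had the lowest TE fold of the roles in quiescence by median. Their median TE log2 fold was -0.51, while their median RNA fold was -0.26. In TE 5 of these 10 were lower by 1.5-fold or more, against 13.8% of transcripts. The 3 RNA polymerase I genes among the 58 did not share this. Their median TE fold was -0.15, none was lower by 1.5-fold or more, and POLR1A was at 0.52. CD3EAP, a polymerase I subunit, had TE folds of -0.59 in quiescence and -1.61 in senescence. Its senescence occupancy was only 4.54 FPKM, against 13.6 FPKM in the run 2 control. RCL1, a small-subunit processing factor, had TE folds of -1.37 in quiescence and -2.39 in pre-senescence. These rest on low levels, in the run 1 order given above: RNA at 4.88, 3.89 and 7.38 FPKM and occupancy at 16.1, 4.97 and 4.63 FPKM. NOP10, the small H/ACA protein that partners DKC1, NHP2 and GAR1, had an RNA log2 fold of 1.42 in senescence and a TE fold of -1.07, so its occupancy differed by 0.35. With the control of the other run, 3 of the 10 further polymerase I genes were lower in TE in quiescence, against 17.8% of transcripts. Their median TE fold was then -0.50. The TE folds then were -0.12 and -2.08 for CD3EAP, -0.13 and -1.16 for RCL1 and -0.058 for NOP10 in senescence. These genes were picked out after their values had been seen.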
